A study of Homo sapiens with 24 samples.

Results

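Expression of 44 genes of mitosis and of the G2/M transition was described across 8 conditions of the ovarian cancer cell lines PEO1 and PEO4. The genes were chosen by name, from their known roles in cell division, with earlier results of these data known. They are 44 of the 28277 genes listed in each of the 2 count tables. All 44 had enough counts to be tested in both tables, among 15882 tested genes in the smaller table (6 libraries) and 17020 in the larger (18 libraries). By role they comprise 6 genes for cyclins, CDK1 and its activation, 3 for activation and targets of the anaphase promoting complex, 3 for mitotic kinases, 4 for the spindle assembly checkpoint, 4 for the chromosomal passenger complex, 8 for the centromere, kinetochore and protection of cohesion, 6 for kinesin motors, 8 for spindle and microtubule binding proteins, and 2 for cytokinesis.

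Entry into mitosis is driven by CDK1 bound to cyclin B, which CDC25 phosphatases activate and which works together with the kinases PLK1 and AURKA to build the spindle. The spindle assembly checkpoint then holds the anaphase promoting complex inactive until every kinetochore is attached, after which CDC20 directs that complex to destroy cyclin B and securin. The mRNAs of these proteins accumulate together late in the cell cycle, through promoters bound by the DREAM and MYB-MuvB complexes and by FOXM1, so that in a mixed culture their level also follows the share of cells in G2 and M.

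PEO1 and PEO4 are adherent high-grade serous ovarian carcinoma lines that come from a single patient, from before and after chemotherapy resistance, and each is compared here as cultured cells. The first pair was untreated PEO1 A, which carries a truncating BRCA2 mutation (the series' design text gives it as BRCA2-, while its genotype label reads WT), and untreated PEO4 A, in which BRCA2 function is restored. The second pair was PEO1 B, a PEO1 population with a spontaneous reversion that restores BRCA2 (genotype BRCA2+), and PEO4 B (genotype WT), each untreated or incubated with 5 µM of the G-quadruplex ligand pyridostatin (PDS) for 2 or 6 h. Every condition had 3 biological replicates, and expression is given as CPM, the counts of a gene scaled to a common library total after TMM normalization. RNA was taken from whole cultures, so fewer cells in mitosis and less mRNA per mitotic cell cannot be told apart.

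G2/M promoters are known for a short element near the start site, the cell cycle genes homology region (CHR), with CCAAT boxes upstream of it, and these letters were looked for in the members' promoters. The promoters of CDK1, PLK1, CDC20, BUB1 and CCNB2 are printed because the results below turn on these genes and because they show arrangements of both elements. All of them held both, so they do not stand for every member. CCNB1 and CCNA2, for example, held CCAAT but no CHR form in their windows. Each runs 5′ to 3′ on the gene's strand from 250 bases before the RefSeq start site to 30 bases after it, with capitals for the CHR forms TTTGAA and TTCGAA and for the CCAAT box on either strand. On the other strand TTTGAA is written TTCAAA, the box is written ATTGG, while TTCGAA reads the same on both. In GRCh38.p14 they lie at chr10:60778228-60778507 on the plus strand (CDK1), chr16:23678639-23678918 on the plus strand (PLK1), chr1:43358731-43359010 on the plus strand (CDC20), chr2:110678034-110678313 on the minus strand (BUB1) and chr15:59104896-59105175 on the plus strand (CCNB2).
CDK1: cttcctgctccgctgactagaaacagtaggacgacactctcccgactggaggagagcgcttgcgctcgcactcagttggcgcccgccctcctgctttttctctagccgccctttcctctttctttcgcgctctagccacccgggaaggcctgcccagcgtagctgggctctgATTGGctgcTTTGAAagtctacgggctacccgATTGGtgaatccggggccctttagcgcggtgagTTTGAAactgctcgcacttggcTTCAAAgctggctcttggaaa
PLK1: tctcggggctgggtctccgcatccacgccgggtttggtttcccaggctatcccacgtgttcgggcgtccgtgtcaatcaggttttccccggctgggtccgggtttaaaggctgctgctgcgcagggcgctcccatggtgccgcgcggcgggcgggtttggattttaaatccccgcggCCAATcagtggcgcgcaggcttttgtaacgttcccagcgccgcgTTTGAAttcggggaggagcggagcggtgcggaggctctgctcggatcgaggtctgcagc
CDC20: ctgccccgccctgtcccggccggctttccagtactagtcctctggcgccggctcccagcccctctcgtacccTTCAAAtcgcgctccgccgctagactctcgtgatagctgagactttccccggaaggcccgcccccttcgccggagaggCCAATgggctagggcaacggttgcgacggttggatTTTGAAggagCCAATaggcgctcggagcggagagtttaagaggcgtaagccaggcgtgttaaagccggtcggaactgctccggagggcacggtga
BUB1: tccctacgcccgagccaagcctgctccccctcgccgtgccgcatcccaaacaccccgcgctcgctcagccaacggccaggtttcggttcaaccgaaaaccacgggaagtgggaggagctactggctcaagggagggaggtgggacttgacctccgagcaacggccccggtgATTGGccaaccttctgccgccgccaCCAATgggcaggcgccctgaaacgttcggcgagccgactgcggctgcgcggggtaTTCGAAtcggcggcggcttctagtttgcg
CCNB2: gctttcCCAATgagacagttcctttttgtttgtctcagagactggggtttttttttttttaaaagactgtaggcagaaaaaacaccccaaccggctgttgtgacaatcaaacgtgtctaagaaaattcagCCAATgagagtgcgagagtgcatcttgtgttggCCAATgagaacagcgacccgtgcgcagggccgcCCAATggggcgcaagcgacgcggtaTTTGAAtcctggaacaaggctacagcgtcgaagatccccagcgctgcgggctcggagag
CDK1, the kinase that drives mitotic entry, held TTTGAA 69 and 13 bases before the start and its reverse complement 9 bases after it, counted to the first base of each match from the left. PLK1 and CCNB2 each held 1 CHR match, at 29 bases before the start. CDC20 held TTTGAA 65 bases before the start, its reverse complement 178 bases before it and a CCAAT box 55 bases before it, whereas BUB1 held the variant TTCGAA at the start itself, 1 base after the first transcribed base.

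Of the 44 members, 39 had a promoter window in the RefSeq table (the others were AURKA, BIRC5, TPX2, TTK and UBE2C). A CHR form (TTTGAA or TTCGAA on either strand) was in the 300 bases around a start of 29 of the 39 members (74.4%), against 19.5% of all 27305 genes with a window. TTTGAA alone was in 69.2% of members and 18.2% of all genes, and TTCGAA in 10.3% and 1.82%. CCAAT on either strand was in 82.1% of members and 39.7% of all genes, and both elements were in 64.1% against 7.85%. A G-quadruplex motif, defined as 4 runs of GGG with 1 to 7 bases between them on either strand, was in 7 of the 39 (17.9%) against 27.8% of all genes. The CHR matches of the members lay close to the start, with 27 of 44 (61.4%) between 50 bases before it and 24 after it, against 22.0% of the matches in all windows. These matches are a description of letters and say nothing of binding in these cells.

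**Figure D1:**
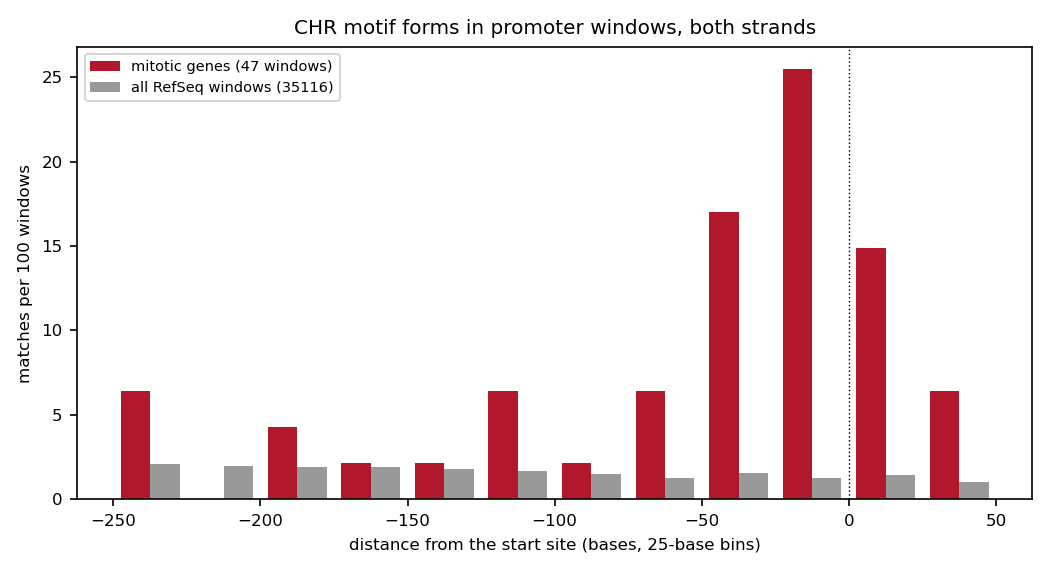
Matches of TTTGAA or TTCGAA per 100 promoter windows (vertical axis) by distance of the match from the RefSeq start site in bases (horizontal axis, 25-base bins), for the members (red, 47 windows, since some genes have several) and for all windows (grey, 35116). The red bars are highest in the bins that span from 50 bases before to 24 after the start, which hold 61.4% of the members' matches.

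The libraries of the first pair held 32528913 to 63882077 counts and those of the second 18699929 to 43713947. Member counts per library ran from 26 (SPC25) to 18238 (ASPM) in the first table and from 23 (SPC25) to 14472 (BIRC5) in the second. All 6 untreated libraries of the second pair were shallower (18699929 to 22375644 counts) than its 12 PDS-treated libraries (33260167 to 43713947), and ribosomal RNA took 0.217 to 0.4735% of their counts against 0.01635 to 0.0369% after PDS. Depth and ribosomal share therefore moved with every comparison of PDS with untreated cells, and their part in those results was not tested, whereas 6 h against 2 h compares treated libraries with each other. The lines matched their tissue, with 11 of 12 epithelial ovarian markers above 1 CPM in every PEO1 library and 12 of 12 in every PEO4 library. Summed over the 12, these markers stood at 11140 to 11440 CPM in untreated PEO1 B and 15470 to 16910 CPM at 2 h of PDS. The 3 endothelial markers summed to at most 2.72 CPM in any library, the 5 fibroblast markers to at most 36.8 CPM and the 5 leukocyte markers to 28.3 to 83.8 CPM, while CD3E was at 0 in every library. In PEO4 B the fibroblast sum was 19.99 to 36.8 CPM untreated, 5.91 to 7.72 CPM at 2 h and 2.74 to 3.94 CPM at 6 h, and the leukocyte sum 33.8 to 57.0, 73.4 to 83.8 and 70.2 to 79.6 CPM. Marker sums also differed between untreated lines. The fibroblast sum was 32.5 to 36.7 CPM in PEO1 A and 5.82 to 10.9 CPM in PEO4 A, and 5.09 to 7.11 CPM in untreated PEO1 B. The epithelial sum was 8423 to 9096 CPM in PEO1 A and 7117 to 8478 CPM in PEO4 A, and 7453 to 9836 CPM in untreated PEO4 B. These sums moved with PDS and with both line comparisons, and their part in the results was not tested. Exons of 17 members overlap those of another gene, 15 on the opposite strand and 4 on the same strand, among them CCNA2, PLK1, CDC25C, BUB1B, NUSAP1 and ANLN, and whether counting used strand is not given in the sources used here.

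BRCA2, whose status separates PEO1 A from the other populations, was checked first. It had 7.99, 8.57 and 8.15 CPM in PEO1 A and 11.3, 16.1 and 13.0 CPM in PEO4 A, without overlap, a log2 difference of 0.70 (SE 0.144, adjusted p = 0.00097). In untreated PEO1 B it had 7.86, 8.80 and 8.08 CPM and in PEO4 B 7.92, 7.33 and 9.26 CPM, which overlapped (-0.01, adjusted p = 0.93). Since PEO1 A carries a point mutation, its mRNA level does not by itself check the label.

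Summed over the 44 members, expression was 5330 ± 133.3 CPM (SD, n = 3) in PEO1 A and 3745 ± 405.5 CPM in PEO4 A. In PEO1 B the sum was 4186 ± 137.6 CPM untreated, 5435 ± 53.0 CPM at 2 h of PDS and 4756 ± 26.4 CPM at 6 h. In PEO4 B it was 3919 ± 393.4, 4952 ± 258.3 and 5400 ± 29.2 CPM at the same times. PEO1 B thus had its highest sum at 2 h and PEO4 B at 6 h, and in both lines the lowest treated library lay above the highest untreated one. For PEO1 B at 6 h that separation depended on TMM scaling. As a share of unscaled counts, the members took 0.4528 to 0.4652% in PEO1 B at 6 h and 0.4278 to 0.4584% untreated, which overlapped. At 2 h the PEO1 B share was 0.5177 to 0.5324%, above untreated. In PEO4 B the lowest library at 2 h (0.4616%) lay just above the highest untreated one (0.4607%), and at 6 h the share was 0.5119 to 0.5204%. Replicates of untreated PEO4 B were the most spread of the second pair, from 3541 to 4327 CPM. Per kilobase of the canonical transcript, CDC20 or UBE2C, the anaphase promoting complex activator and its ubiquitin-conjugating enzyme, was highest in every condition, at 138 to 246 CPM per kb. The kinetochore gene SPC25 was lowest throughout, at 0.603 to 1.60 CPM per kb, while the median member had 21.4 to 34.1 CPM per kb. In that order 15 to 38 of the 43 neighbouring pairs, depending on the condition, had overlapping replicates.

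**Figure D2:**
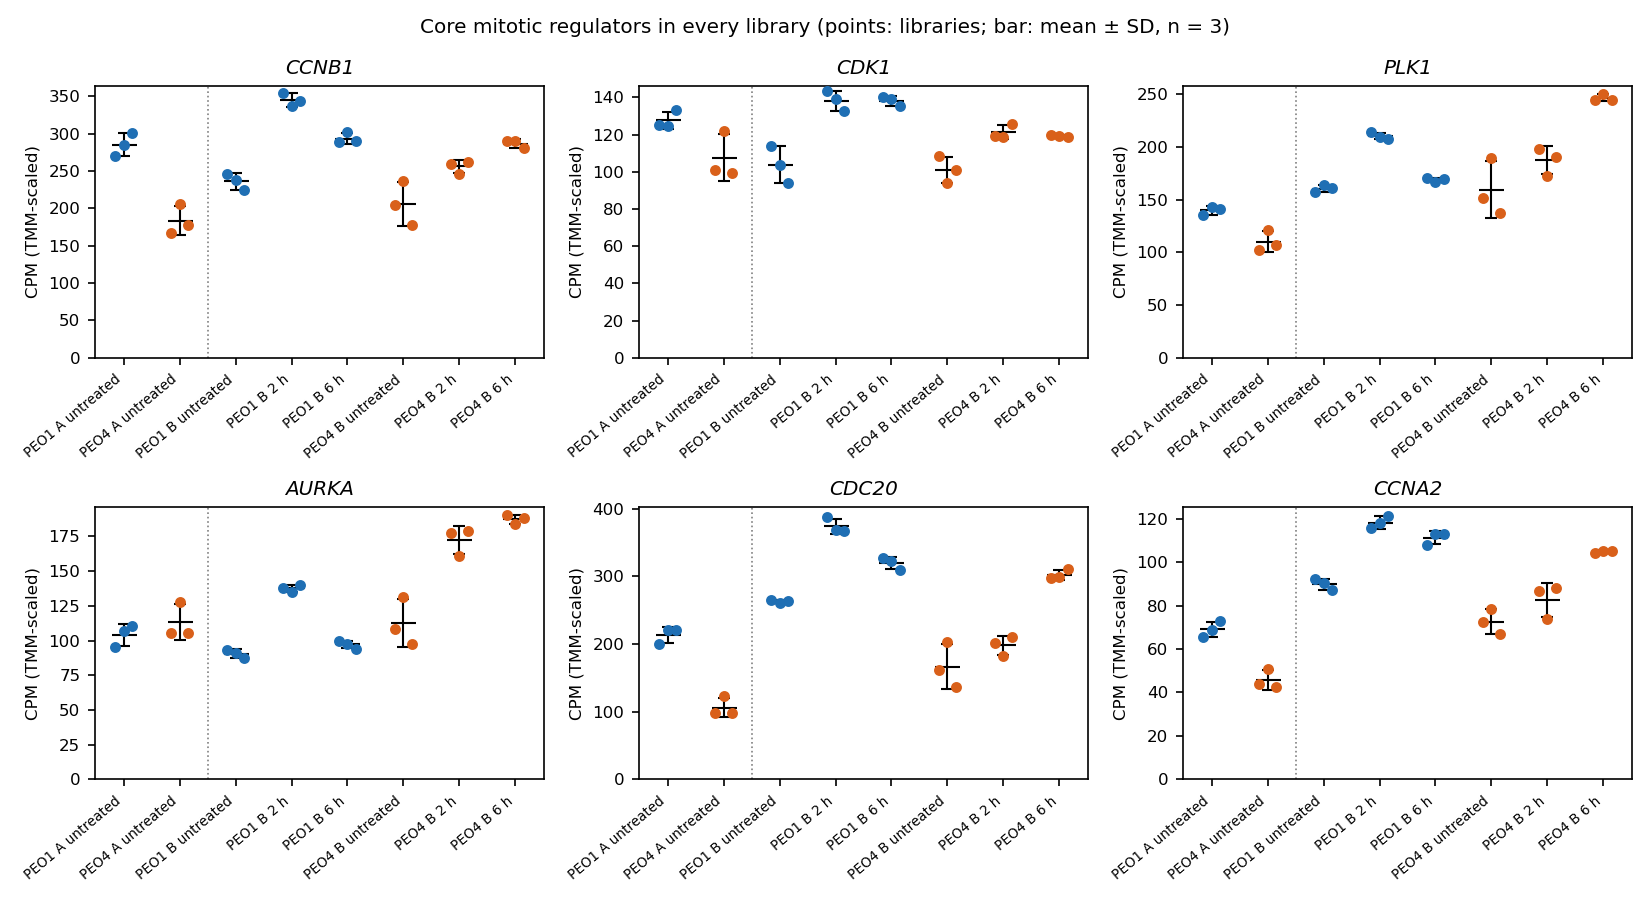
TMM-scaled CPM (vertical axes, from 0) of CCNB1, CDK1, PLK1, AURKA, CDC20 and CCNA2 in every library of the 8 conditions (horizontal axes), with points for libraries, blue for PEO1 and orange for PEO4, and black bars for the mean ± SD (n = 3). The dotted line separates the first and second pair, which were scaled separately. By the mean, PEO1 B is highest at 2 h and PEO4 B at 6 h for all 6 but CDK1, whose treated libraries overlap between the times.

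Between the untreated lines of the first pair, mitotic genes were lower in PEO4 A. Of the 44, 31 fell, 2 rose and 11 did not pass the test, at a Benjamini-Hochberg adjusted p under 0.05 in edgeR's quasi-likelihood test over all genes, while 31.6% of all tested genes fell and 30.1% rose. The median log2 fold change (PEO4 A over PEO1 A) was -0.42 for the members and -0.01 for all tested genes. The changes were mostly small, since 6 members fell by more than 2-fold and none rose as much, against 25.8% of all genes in either direction. All 8 spindle and microtubule binding genes fell (median -0.75), as did 5 of 6 genes for cyclins and CDK1 activation (median -0.51) and both cytokinesis genes. The other roles were mixed. The 11 members that did not pass were CDC25C, UBE2C, PTTG1, AURKA, MAD2L1, AURKB, BIRC5, CENPE, SPC25, SGO2 and KIF18A.

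GTSE1, a microtubule binding protein of G2 and S phase cells, fell the most. It had 78.7, 91.1 and 83.4 CPM in the PEO1 A replicates and 27.4, 30.0 and 27.5 CPM in PEO4 A, a log2 change of -1.58 (SE 0.0833, adjusted p = 7.9e-09). HMMR, a spindle assembly protein, had 66.1, 72.0 and 71.0 CPM and 24.7, 35.6 and 27.6 CPM (-1.25 ± 0.118 SE). In both genes every PEO4 A library lay below every PEO1 A library. The other 4 that fell past 2-fold were CCNB2 (cyclin B2, -1.17), NUSAP1 (a spindle microtubule bundler, -1.15), BUB1B (the checkpoint protein BUBR1, -1.10) and CDC20. CDC20 had 200.1, 221 and 220.2 CPM in PEO1 A and 97.6, 123 and 97.7 CPM in PEO4 A (-1.01 ± 0.0955 SE). Cyclin B1 (CCNB1) had 269.8, 285 and 301 CPM against 167, 206 and 178 CPM (-0.63 ± 0.088 SE). Cyclin A2 (CCNA2) had 65.6, 68.7 and 72.7 CPM against 43.7, 50.8 and 42.7 CPM (-0.59 ± 0.0859 SE). The groups did not overlap for CDC20 or for either cyclin.

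PLK1 fell less, from 136, 143 and 141 CPM to 102, 121 and 107 CPM (-0.34, SE 0.0776, adjusted p = 0.0019). CDK1 had 125, 125 and 133 CPM and 101, 122 and 99.6 CPM (-0.25, SE 0.0861, adjusted p = 0.024), and its call was lost without replicate 2 or 3 of PEO1 A or replicate 3 of PEO4 A and with upper-quartile scaling (adjusted p = 0.052 to 0.11). AURKA had 95.4, 107 and 111 CPM and 106, 128 and 106 CPM, which overlapped (0.12, adjusted p = 0.28). The 2 members that rose were TTK, the checkpoint kinase MPS1, and KIF20A, a kinesin of the central spindle. TTK had 48.9, 52.1 and 50.7 CPM in PEO1 A and 58.4, 72.0 and 61.9 CPM in PEO4 A (0.34 ± 0.0875 SE), and KIF20A 109, 109 and 106 CPM and 135, 148 and 122 CPM (0.33 ± 0.0792 SE). The exons of KIF20A overlap those of CDC23 and BRD8.

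In the second pair, where PEO1 B also has functional BRCA2, the untreated lines differed in both directions. In PEO4 B 18 members were lower, 11 higher and 15 not called, against 34.6% and 34% of all tested genes lower and higher, and the median log2 difference was -0.06 for the members and 0.00 for all genes. That median was -0.03 without replicate 3 and -0.11 without replicate 2 of PEO4 B and -0.10 without replicate 3 of PEO1 B, and with 1 library left out 12 to 20 members were lower. Only KIF20A was more than 2-fold higher and only GTSE1 more than 2-fold lower, against 24.8% of all genes past that fold. KIF20A had 54.1, 55.5 and 58.7 CPM in PEO1 B and 125, 147 and 111 CPM in PEO4 B (1.19, SE 0.0753, adjusted p = 5.2e-13). CDC25C, the phosphatase that activates CDK1, had 8.67, 8.14 and 6.41 CPM and 14.0, 15.2 and 14.7 CPM (0.92 ± 0.0981 SE). GTSE1 had 87.9, 88.3 and 89.0 CPM and 35.4, 40.3 and 39.8 CPM (-1.20, SE 0.0585, adjusted p = 3.0e-15), and BUB1B 119, 116 and 107 CPM and 57.5, 64.1 and 61.9 CPM (-0.90 ± 0.0667 SE). None of these 4 overlapped between the lines. Exons of KIF20A overlap those of CDC23 on the opposite strand. CDC23 was itself higher in PEO4 B (log2 difference 0.69) and in PEO4 A (1.15), and its part in the KIF20A counts was not tested.

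Of the core regulators, CDC20 fell from 265, 261 and 264 CPM to 162, 203 and 136 CPM (-0.66 ± 0.0908 SE), and CCNA2 from 92.2, 90.3 and 87.0 CPM to 72.3, 78.3 and 66.9 CPM (-0.31 ± 0.0641 SE). AURKA was higher, with 93.3, 91.3 and 87.1 CPM in PEO1 B and 108, 132 and 97.8 CPM in PEO4 B (0.31 ± 0.0735 SE). CCNB1 had 247, 238 and 224 CPM and 204, 236 and 178 CPM, which overlapped (-0.20, SE 0.0694, adjusted p = 0.015). Without replicate 1 of PEO1 B or replicate 3 of PEO4 B the call for CCNB1 was lost (adjusted p = 0.072 and 0.15), as it was in a fit of the compared libraries alone (0.089). CDK1 (-0.04 ± 0.0622 SE) and PLK1 (-0.01 ± 0.0766 SE) were not called. PLK1 was called lower without replicate 2 of untreated PEO4 B, its highest library (log2 difference -0.15, adjusted p = 0.034).

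Set side by side, the pairs shared 18 members called in the same direction (16 lower and 2 higher in PEO4), which are 54.5% of the members called in the first pair and 62.1% of those called in the second. For all genes tested in both tables these shares were 68.8% and 60.3%. GTSE1, HMMR, BUB1B, CDC20 and ASPM were among the lower ones, and TTK and KIF20A were the higher ones. BUB1, a checkpoint kinase, and DLGAP5, a spindle protein, fell in the first pair (-0.42 and -0.35) and were higher in PEO4 in the second (0.40 and 0.46). The tables were normalized separately, and the difference between the pairs was not tested.

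**Figure D3:**
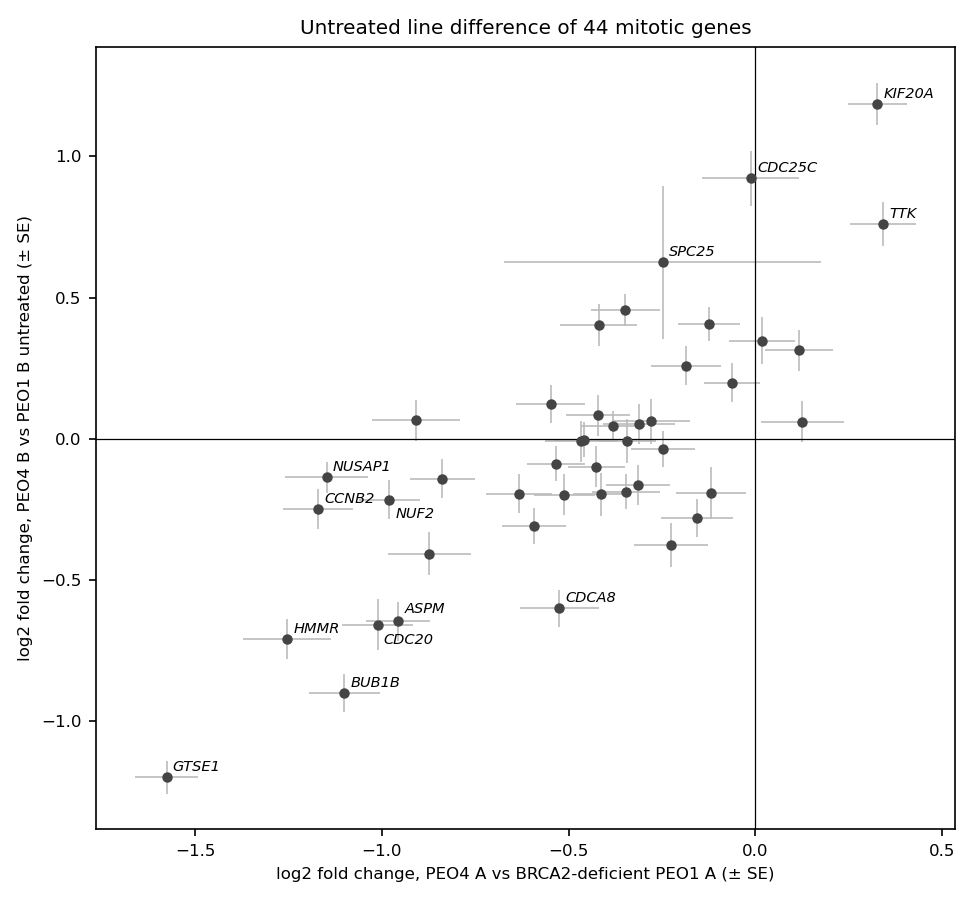
Log2 fold change of the 44 members, PEO4 over PEO1, in the first untreated pair (horizontal axis) and the second (vertical axis), with bars for the SE. Most points lie left of 0 on the horizontal axis (31 called lower), while on the vertical axis they spread to both sides of 0, from GTSE1 at -1.20 to KIF20A at 1.19.

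After 2 h of PDS, mitotic genes rose together in PEO1 B. Of the 44, 38 rose, 1 fell and 5 did not pass, whereas 26.4% of all tested genes rose and 26.2% fell. The median log2 fold change was 0.44 for the members, a 1.355-fold rise, and -0.03 for all genes. No member passed 2-fold, against 7.57% of all genes. All members rose in the roles of cyclins and CDK1 activation (6 of 6), anaphase promoting complex activation and targets (3 of 3), mitotic kinases (3 of 3) and kinesin motors (6 of 6). With library totals in place of TMM, the median of all genes moved to -0.17 and 30 members rose. Under TMM and each of the 3 other scalings run, the members' median stood 0.46 above that of all genes. A scaling shifts all genes of a library nearly alike, so this gap could hardly differ and is no check of the scaling.

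PTTG1, or securin, the inhibitor of sister chromatid separation, rose the most, from 45.7, 44.4 and 41.3 CPM untreated to 80.2, 80.2 and 73.4 CPM at 2 h (0.83, SE 0.082, adjusted p = 1.4e-08). PTTG1 has near-identical copies in the genome, so its counts are less certain than those of the other members. AURKB, the kinase of the chromosomal passenger complex, rose from 33.9, 34.0 and 31.3 CPM to 59.0, 55.8 and 56.4 CPM (0.79 ± 0.0667 SE). Next came NDC80 (0.77), a kinetochore protein that binds microtubules, and KIF2C (0.73), a kinesin that depolymerizes them. SPC25, a partner of NDC80 in the same complex, was the only member that fell, from 1.82, 1.36 and 1.01 CPM to 0.881, 0.621 and 0.925 CPM (-0.79, SE 0.291, adjusted p = 0.025). The SPC25 call rests on few counts and was lost without replicate 1 or 2 of untreated PEO1 B or replicate 2 of the 2 h group (adjusted p = 0.054 to 0.16).

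Every core regulator rose without overlap between untreated and treated libraries. CCNB1 went from 247, 238 and 224 CPM to 354, 337 and 344 CPM (0.55 ± 0.069 SE), and AURKA from 93.3, 91.3 and 87.1 CPM to 138, 135 and 139.9 CPM (0.60 ± 0.0727 SE). CDC20 went from 265, 261 and 264 CPM to 387, 368 and 366 CPM (0.51 ± 0.0896 SE), and CDK1 from 114, 103 and 94.3 CPM to 143, 139 and 132 CPM (0.41 ± 0.0614 SE). For CCNA2 the values were 92.2, 90.3 and 87.0 CPM and 116, 118 and 121 CPM (0.40 ± 0.0626 SE), and for PLK1 157, 164 and 161 CPM and 214, 209.6 and 208 CPM (0.39 ± 0.076 SE). The 5 members not called were ASPM, ECT2, BUB1, GTSE1 and INCENP, with log2 fold changes of -0.07 to 0.16.

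At 6 h of PDS fewer members of PEO1 B stood above untreated cells. Then 24 were higher, 3 lower and 17 not called, against 27% and 26% of all genes, with a median of 0.20 (all genes -0.03) and no member past 2-fold (8.13% of all genes). Library totals turned the split to 16 higher and 8 lower, and upper-quartile scaling to 18 and 7. PTTG1 had 75.4, 78.0 and 68.8 CPM (0.76 ± 0.082 SE against untreated) and MAD2L1, the checkpoint protein MAD2, 70.1, 73.3 and 65.4 CPM against 42.7, 43.5 and 42.2 CPM untreated (0.70 ± 0.0744 SE). ASPM, a spindle pole protein, was lower at 146, 143 and 166 CPM against 189, 203 and 179 CPM (-0.33 ± 0.0691 SE). BUB1 was lower at 82.1, 80.3 and 87.3 CPM against 102, 98.6 and 90.1 CPM (-0.22, SE 0.0735, adjusted p = 0.014). Its call was lost without replicate 1 or 2 of either group (adjusted p = 0.051 to 0.093). GTSE1 was the third (-0.14), and its call was lost without any of the libraries but replicate 3 of the 6 h group (adjusted p = 0.08 to 0.17). The members called lower numbered 1 without replicate 1 or 2 of either group and 5 without replicate 3 of the 6 h group.

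CDK1 had 140.4, 139 and 135 CPM, which overlapped its 2 h values (0.41 ± 0.0614 SE against untreated), and CCNA2 had 108, 113 and 113 CPM (0.31 ± 0.0627 SE). CCNB1 had 288, 302 and 290.1 CPM (0.31 ± 0.0689 SE) and CDC20 327, 322 and 309 CPM (0.28, SE 0.0895, adjusted p = 0.013). With library totals or upper-quartile scaling CDC20 was not called (adjusted p = 0.19 and 0.07). PLK1 had 171, 167 and 169.9 CPM (0.08, adjusted p = 0.42) and AURKA 99.9, 97.5 and 94.2 CPM (0.10, adjusted p = 0.25), and neither passed the test against untreated cells although their libraries did not overlap.

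Between 2 and 6 h, treated PEO1 B libraries showed a fall in the members. Of the 44, 20 fell, none rose in edgeR's quasi-likelihood test and 24 did not pass, while 2.98% of all genes fell and 3.96% rose. At an unadjusted p under 0.05 the count that rose was 0 as well, and DESeq2's Wald test called 0. The median was -0.23 (all genes 0.00), and no member passed 2-fold. AURKA fell from 138, 135 and 139.9 CPM at 2 h to 99.9, 97.5 and 94.2 CPM at 6 h (-0.50, SE 0.0719, adjusted p = 8.0e-05). KIF18A, a kinesin that aligns chromosomes, fell with a log2 change of -0.49 (SE 0.0631, adjusted p = 2.1e-05), and the centromeric histone CENPA with -0.48. PLK1 (-0.31, SE 0.0755, adjusted p = 0.011) and CCNB1 (-0.23, SE 0.0685, adjusted p = 0.038) also fell, without overlap between the times. For CCNB1 the call was lost with any of the 6 libraries left out (adjusted p = 0.072 to 0.14), and for PLK1 without replicate 2 of the 6 h group (0.052). CDC20 (-0.23 ± 0.089 SE), CCNA2 (-0.09 ± 0.0617 SE) and CDK1 (0.00 ± 0.0605 SE) were not called, though CDC20 was in a fit of the compared libraries alone (-0.23, adjusted p = 0.0013). Without replicate 2 of the 6 h group 13 members were called, all lower.

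In PEO4 B mitotic genes also rose by 2 h of PDS. Of the 44, 34 rose, 3 fell and 7 did not pass, against 33.3% of all genes that rose and 32% that fell, with a median of 0.40 for the members and 0.00 for all genes. The only member past 2-fold was SPC25, against 17.4% of all genes. SPC25 fell from 2.38, 2.21 and 1.84 CPM to 0.972, 0.708 and 1.39 CPM (-1.05, SE 0.262, adjusted p = 0.0011), and GTSE1 from 35.4, 40.3 and 39.8 CPM to 30.2, 29.3 and 31.1 CPM (-0.35 ± 0.0594 SE). ASPM was the third that fell (-0.20), and its call was lost without replicate 2 of either group (adjusted p = 0.098 and 0.091). PTTG1 rose from 52.3, 66.4 and 48.5 CPM to 95.3, 104 and 103 CPM (0.86, SE 0.0808, adjusted p = 2.3e-09), and MAD2L1 from 34.9, 35.0 and 29.1 CPM to 53.1, 51.8 and 64.6 CPM (0.78 ± 0.076 SE). The treated and untreated libraries did not overlap for any of these named with both sets of values.

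AURKA rose from 108, 132 and 97.8 CPM to 177, 161 and 179 CPM (0.62 ± 0.0722 SE), CCNB1 from 204, 236 and 178 CPM to 259.9, 246 and 262 CPM (0.31 ± 0.0691 SE), and CDK1 from 108, 94.2 and 101 CPM to 119, 119 and 126 CPM (0.26 ± 0.0615 SE), each without overlap. CDC20 (162, 203 and 136 CPM and 201, 182 and 211 CPM), CCNA2 (72.3, 78.3 and 66.9 CPM and 86.7, 73.7 and 87.9 CPM) and PLK1 (152, 190.0 and 137 CPM and 199, 173 and 191 CPM) were called higher but overlapped, and replicate 2 was the highest untreated library for each. Their log2 fold changes were 0.25 (adjusted p = 0.021), 0.19 (adjusted p = 0.01) and 0.23 (adjusted p = 0.01). Each of these 3 calls was lost in a fit of the compared libraries alone (adjusted p = 0.17, 0.12 and 0.13) and without replicate 3 of untreated PEO4 B (0.14, 0.068 and 0.089), and other libraries left out also ended them. With library totals CDK1 was not called either (adjusted p = 0.053).

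At 6 h most members of PEO4 B were above untreated cells. Of the 44, 38 were higher, 2 lower and 4 not called, against 34.6% and 35.2% of all genes, with a median of 0.42 (all genes -0.03) and no member past 2-fold (22.6% of all genes). All 4 checkpoint genes, all 3 mitotic kinases and all 6 kinesins were higher. ANLN, the actin binding protein of the cleavage furrow, rose the most, from 161, 164 and 129.6 CPM to 291, 294 and 286 CPM (0.94, SE 0.076, adjusted p = 9.0e-11), and CDC20 rose from 162, 203 and 136 CPM to 297, 299.6 and 311 CPM (0.86, SE 0.0906, adjusted p = 4.0e-08). SPC25 had 1.36, 1.25 and 0.988 CPM (-0.83 ± 0.259 SE) and NUSAP1 112, 110.2 and 107 CPM against 127, 126 and 125 CPM untreated (-0.20 ± 0.0562 SE), and these were the 2 that fell. CCNB2 was called higher at 0.16, yet its log2 fold change was -0.003 with library totals (adjusted p = 0.97), and the call was also lost with the other scalings, in DESeq2's Wald test, in a fit of the compared libraries alone and without any of 5 of the 6 libraries, all but replicate 2 of the untreated group (adjusted p = 0.061 to 0.58).

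At 6 h, PLK1 had 245, 251 and 245 CPM (0.63 ± 0.0761 SE against untreated), AURKA 190.3, 184 and 188 CPM (0.74 ± 0.0723 SE), and BUB1 215, 222 and 205 CPM against 126, 144 and 115 CPM untreated (0.74 ± 0.0724 SE). CCNB1 had 290.5, 289.6 and 280.2 CPM (0.48 ± 0.0692 SE) and CCNA2 104, 105 and 105 CPM (0.53 ± 0.0633 SE). CDK1 had 120.0, 119 and 119 CPM (0.24, SE 0.0615, adjusted p = 0.0014), and its call was lost with library totals or upper-quartile scaling (adjusted p = 0.24 and 0.065). In all 6 the treated libraries lay above the untreated ones.

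Between 2 and 6 h in PEO4 B, 13 members rose, 9 fell and 22 did not pass, against 28.9% and 31.3% of all genes (median 0.06, all genes -0.02). Upper-quartile scaling gave 12 that rose and 13 that fell. The count that fell was 5 without replicate 1 of the 2 h group or replicate 3 of the 6 h group, and the median was 0.02 without replicate 2 and 0.09 without replicate 3 of the 2 h group. CDC20 rose by 0.61 ± 0.0896 SE and ANLN by 0.59 ± 0.075 SE on the log2 scale, and PLK1 by 0.40 ± 0.0753 SE and CCNA2 by 0.34 ± 0.0621 SE. CDC25C fell from 21.6, 22.4 and 20.6 CPM at 2 h to 12.8, 13.7 and 12.9 CPM at 6 h (-0.71, SE 0.0846, adjusted p = 1.2e-07), and CCNB2 also fell (-0.23 ± 0.0684 SE). CCNB1 was called higher (0.16, adjusted p = 0.044) but lost the call with library totals, with upper-quartile scaling and without 5 of the 6 libraries (adjusted p = 0.051 to 0.15), whereas AURKA (0.12 ± 0.0708 SE) and CDK1 (-0.02 ± 0.0606 SE) were not called.

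**Figure D4:**
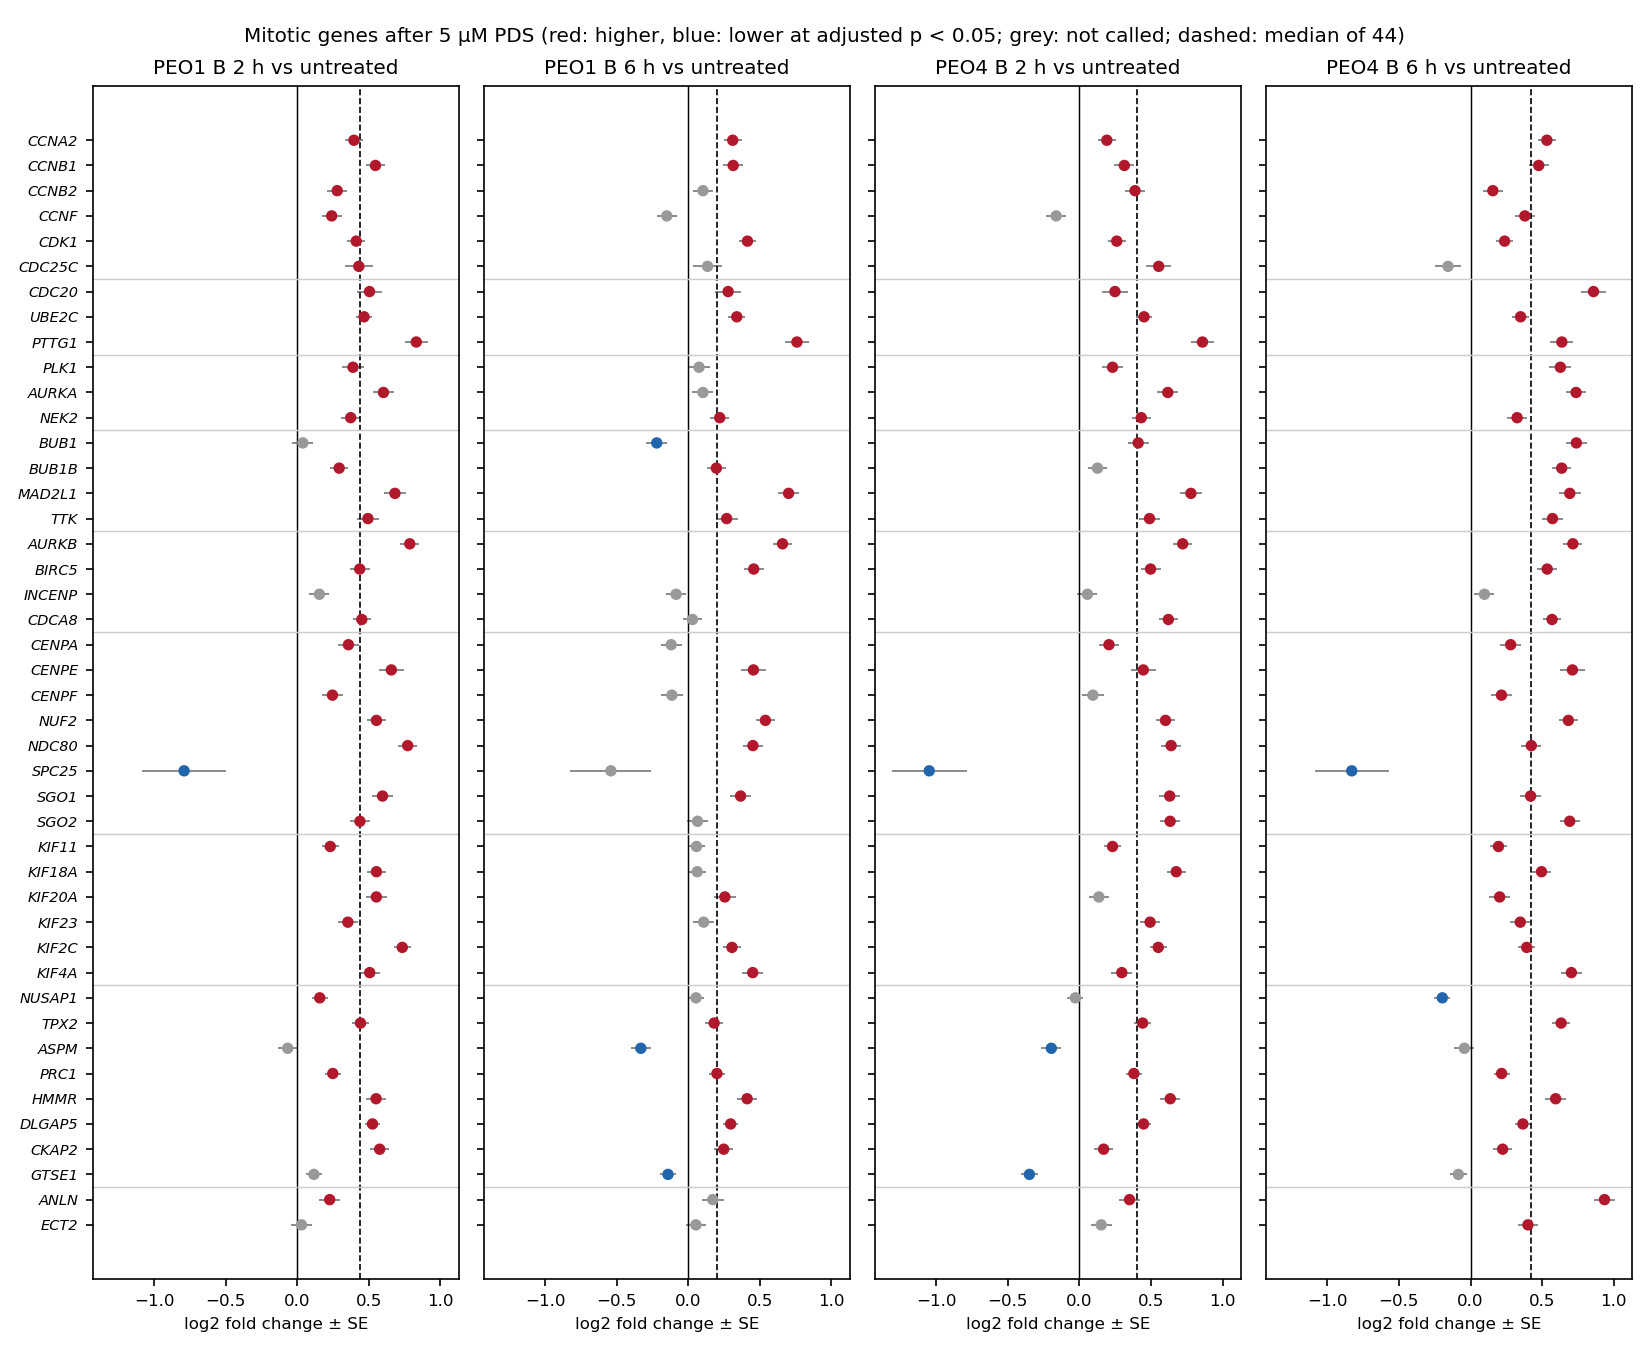
Log2 fold change (horizontal axes, with bars for the SE) of the 44 members (vertical axis, grouped by role with grey lines) after PDS against untreated cells in PEO1 B and PEO4 B at 2 and 6 h. Red points are members called higher, blue lower and grey not called, and the dashed line is the members' median, 0.44, 0.20, 0.40 and 0.42 from left to right.

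The lines were then compared in their response, as the PEO4 B change minus the PEO1 B change. At 2 h of PDS 34 members were called in the same direction in both lines, which is 87.2% of those called in PEO1 B and 91.9% of those called in PEO4 B, against 65.8% and 52.9% for all genes. The response itself differed for 5 members, with a higher log2 fold change in PEO4 B for 1 and a lower one for 4, against 19.3% and 18% of all genes. BUB1 rose in PEO4 B (0.41 ± 0.0723 SE) and was not called in PEO1 B (0.04 ± 0.0732 SE), a difference of 0.37 (SE 0.103, adjusted p = 0.0061). GTSE1 fell in PEO4 B (-0.35) and was not called in PEO1 B (0.12), a difference of -0.47 (SE 0.0811, adjusted p = 6.5e-05). KIF20A rose in PEO1 B (0.55) and was not called in PEO4 B (0.14), a difference of -0.42 (SE 0.104, adjusted p = 0.0026). CKAP2, a spindle pole protein, rose in both lines (0.58 in PEO1 B and 0.17 in PEO4 B), and CCNF, cyclin F, rose in PEO1 B (0.24) and was not called in PEO4 B (-0.16). None of the core regulators passed in edgeR's quasi-likelihood test, with differences of -0.26 (CDC20) to 0.01 (AURKA), while 2 of the 6 had an unadjusted p under 0.05 and DESeq2's Wald test called CCNB1 and CCNA2. The count was 12 without replicate 3 of untreated PEO4 B, 8 without its replicate 2 and 8 in DESeq2's Wald test. Without replicate 3, CDC20 (-0.38, adjusted p = 0.0022), CCNB1 (-0.33, 0.0021), CCNA2 (-0.26, 0.021) and PLK1 (-0.26, 0.032) were among those called.

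At 6 h of PDS, the log2 fold change was higher in PEO4 B than in PEO1 B for 18 members and lower for 1, and 25 did not pass, against 24.4% and 23% of all genes (median difference 0.17, all genes 0.01). Of the 18, 17 were called higher than untreated in PEO4 B, and of these 10 were not called in PEO1 B, 6 rose in both lines and 1, BUB1, fell in PEO1 B. The other of the 18 was ASPM, which fell in PEO1 B (-0.33) and was not called in PEO4 B (-0.04). BUB1 differed the most (0.96, SE 0.103, adjusted p = 5.6e-08), being higher than untreated in PEO4 B (0.74) and lower in PEO1 B (-0.22), and it was the only member called in opposite directions. ANLN followed (0.77, SE 0.107, adjusted p = 2.8e-06), and AURKA (0.63, SE 0.102, adjusted p = 1.8e-05), CDC20 (0.58, SE 0.127, adjusted p = 0.0008) and PLK1 (0.55, SE 0.107, adjusted p = 0.00017) also had the higher change in PEO4 B. SGO2, which protects centromeric cohesion, differed by 0.63, and CDCA8, or borealin, a chromosomal passenger protein, by 0.54. NUSAP1 had the lower change (-0.25, SE 0.0793, adjusted p = 0.011), as it fell in PEO4 B (-0.20) and was not called in PEO1 B (0.05). CCNA2 lay near the threshold (0.22, adjusted p = 0.042) and lost its call in 14 of the alternatives tried, 10 of them with a library left out, while CCNB1 (0.16 ± 0.0975 SE) and CDK1 (-0.18 ± 0.0868 SE) were not called. Both were called without replicate 2 of untreated PEO4 B (0.27 and -0.23, adjusted p = 0.0084 and 0.031), and CDK1 also without replicate 1 of untreated PEO1 B (-0.25, 0.021). At 6 h, 24 members were called in the same direction in both lines, 88.9% of those called in PEO1 B and 60% of those in PEO4 B, against 67.1% and 50.9% for all genes. With each library left out in turn 15 to 25 members differed in response.

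**Figure D5:**
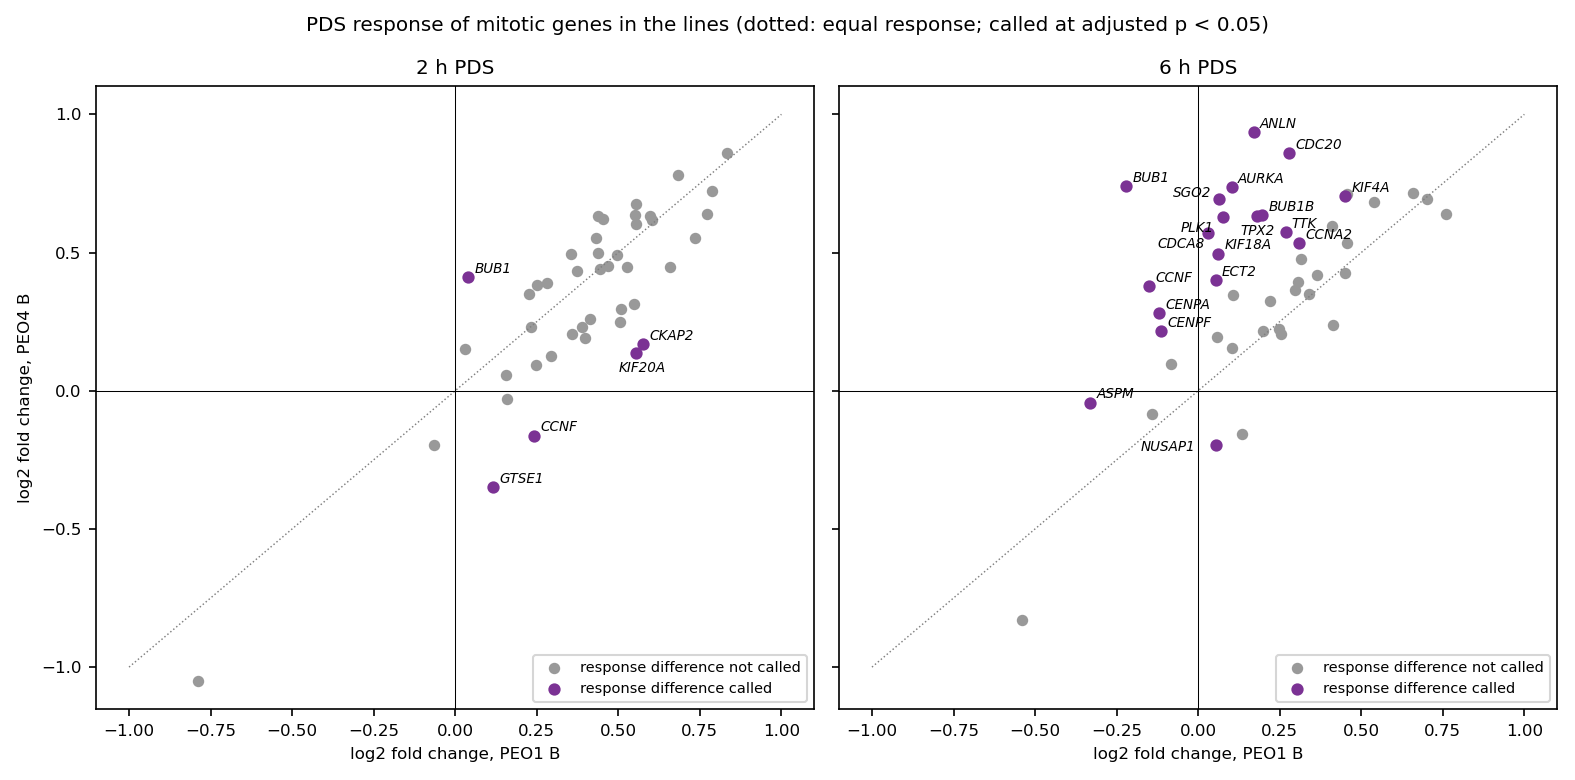
Log2 fold change against untreated cells in PEO1 B (horizontal axes) and PEO4 B (vertical axes) for the 44 members after 2 h (left) and 6 h (right) of PDS, with the dotted line where both are equal. Purple points are members whose response differed between the lines, 5 at 2 h and 19 at 6 h, and at 6 h all of them but NUSAP1 lie above the line.

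Other genes of the cell cycle were counted in the same fits. For scale, the shares of all tested genes that rose and fell were 26.4% and 26.2% in PEO1 B at 2 h, 27% and 26% at 6 h, 33.3% and 32% in PEO4 B at 2 h, and 34.6% and 35.2% at 6 h, and in PEO4 against PEO1 30.1% and 31.6% in the first pair and 34% and 34.6% in the second. Of 67 other tested mitotic genes (condensins, further kinetochore proteins and kinesins), 42 were lower and 6 higher in PEO4 A than in PEO1 A, and 32 and 15 in the second pair. After PDS 41 rose and 5 fell in PEO1 B at 2 h, 32 and 11 at 6 h, and in PEO4 B 34 rose and 9 fell at 2 h, 49 and 7 at 6 h. Between 2 and 6 h none rose in edgeR's quasi-likelihood test (1 at an unadjusted p under 0.05) and 16 fell in PEO1 B, and 30 rose and 12 fell in PEO4 B. Of all genes, 3.96% rose and 2.98% fell between these times in PEO1 B, and 28.9% and 31.3% in PEO4 B. The log2 fold change at 6 h was higher in PEO4 B than in PEO1 B for 34 and lower for 4 (24.4% and 23% of all genes). At 2 h it was higher for 9 and lower for 13 (19.3% and 18% of all genes), counts near or below those shares. These counts give the sign of the difference and cover rises and falls alike. CKS2, a subunit that binds CDK1, rose in both lines at 2 h (1.05 in PEO1 B and 1.17 in PEO4 B).

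Among 16 subunits and cofactors of the anaphase promoting complex, 7 rose and 1 fell in PEO1 B at 2 h, 7 and 2 at 6 h, and in PEO4 B 8 and 2 at 2 h and 10 and 1 at 6 h. In PEO4 A 6 were higher and 6 lower than in PEO1 A, and in PEO4 B 4 and 6. Several of these counts lie near the shares of all genes. ANAPC15 rose the most at 2 h in both lines (0.83 and 1.13). Of 11 tested G1 cyclins, their kinases and CDK inhibitors, 5 rose and 1 fell in PEO1 B at 2 h, 6 and 1 at 6 h, and in PEO4 B 2 rose and 5 fell at 2 h, and 6 and 4 at 6 h, on too few genes to set apart from the shares of all genes. CDKN1A, the CDK inhibitor p21, rose in PEO1 B at 2 h (1.04 ± 0.142 SE) and 6 h (1.08 ± 0.142 SE) and fell in PEO4 B at 2 h (-0.46 ± 0.129 SE) and 6 h (-0.63 ± 0.13 SE). The difference between the lines at 6 h was -1.71 ± 0.193 SE.

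Of 22 transcription regulators of G2/M genes, 8 rose and 2 fell in PEO1 B at either time, and in PEO4 B 2 rose and 11 fell at 2 h and 11 and 4 at 6 h. FOXM1, an activator of G2/M promoters, had 369, 443 and 412 CPM in PEO1 A and 132, 171 and 137 CPM in PEO4 A (-1.47, SE 0.108, adjusted p = 2.0e-07). It was also lower in PEO4 B, with 563, 545 and 546 CPM in PEO1 B and 264, 291 and 233 CPM in PEO4 B untreated (-1.07 ± 0.0813 SE). At 2 h of PDS it was -0.01 (adjusted p = 0.92) against untreated in PEO1 B and -0.26 (adjusted p = 0.0063) in PEO4 B. At 6 h it fell by 0.21 in PEO1 B and rose by 0.45 in PEO4 B, a difference of 0.66 (SE 0.114, adjusted p = 4.7e-05). The FOXM1 call in PEO1 B at 6 h was lost with any of the 6 libraries left out (adjusted p = 0.056 to 0.13), and that in PEO4 B at 2 h without replicate 2 of either group (0.052 and 0.064). MYBL2, the MYB subunit of the MYB-MuvB complex, rose in PEO1 B at 2 h (0.29, not called with library totals or upper-quartile scaling, adjusted p = 0.18 and 0.053). It was also called higher in PEO1 B at 6 h (0.26, adjusted p = 0.028 in edgeR's quasi-likelihood test), a value not given here with other scalings. In PEO4 B at 6 h it rose from 284, 270.2 and 241 CPM to 469, 462 and 474 CPM (0.82 ± 0.0948 SE). The lines differed in the 6 h response of MYBL2 by 0.57 ± 0.133 SE. BRCA2 fell in PEO1 B at 6 h (-0.71) and was not called in PEO4 B (0.21, adjusted p = 0.11), where it was called higher without replicate 3 of the untreated or of the 6 h group (adjusted p = 0.033 and 0.026). Its log2 fold change was higher in PEO4 B by 0.93 ± 0.169 SE.

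By promoter letters, members with and without a CHR form both rose after PDS. The forms looked for were only TTTGAA and TTCGAA, so members without them may hold other spellings. At 2 h in PEO1 B the median log2 fold change was 0.35 for the 29 members with a CHR form (23 rose and 1 fell) and 0.57 for the 10 without (10 rose), and in PEO4 B 0.30 (20 rose and 3 fell) and 0.44 (9 rose). At 6 h these medians were 0.10 and 0.31 in PEO1 B and 0.38 and 0.50 in PEO4 B. In PEO4 A against PEO1 A 25 of the 29 with a CHR form fell and none rose, with 5 lower and 1 higher of the 10 without. The 7 members with a G-quadruplex motif had medians of 0.43 and 0.35 at 2 h in PEO1 B and PEO4 B, against 0.40 and 0.35 for the 32 without. At 6 h the medians were 0.13 with the motif and 0.21 without in PEO1 B, and 0.57 and 0.40 in PEO4 B. These groups were small, were not tested, and include genes that share regulators.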

How the data were processed

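RNA from 24 libraries was sequenced, 3 biological replicates for each of 8 conditions, and the authors deposited whole-number read counts per gene in 2 tables. The submitters' processing notes name FastQC, fastp, STAR, featureCounts and hg38. Tool versions, annotation and strand setting are not given in the sources used here, nor is the library kit of the second pair (the first used a directional polyA kit). Lines without readable counts (2 and 1) were left out. Groups were taken from the labels.

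Each table was fitted whole with edgeR 4.0.16 in R 4.3.3 (filterByExpr with a minimum count of 10, TMM scaling, robust quasi-likelihood test, residual df 4 and 12), and p-values were adjusted by Benjamini-Hochberg over all tested genes with a threshold of 0.05. A 2-fold call also needed an absolute log2 fold change of at least 1. Each SE of a log2 fold change was back-calculated, as its absolute value divided by the square root of the test's F statistic. The 6 core regulators and the members with the largest calls in each direction are named by rule, and others were named after their values were seen. The members and lists were chosen with earlier results of these data known. The p-values measure only the spread between these samples. On simulated counts the fit found 62 of 100 genes changed by 0.5 log2 in the first table (15662 genes) and 73 of 100 in the second (16572). It also called 19 and 6 unchanged genes. The changed genes were drawn from all genes at or above the mean of the lowest member (1.21 and 1.26 CPM). These rates are therefore not those of the members. Alternatives were other scalings, no filter on low counts, DESeq2 1.42.0, a replicate block, only the compared libraries, and each library left out. Promoter windows came from RefSeq on GRCh38.p14.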

Additional observations from a re-analysis of the deposited data

Results flagged for a closer look

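The response to PDS was tested for a difference between the lines, as the change in PEO4 B less that in PEO1 B, and it differed for 5 members at 2 h and 19 members at 6 h by edgeR's quasi-likelihood test. At 2 h the differences were 0.37 for BUB1, -0.47 for GTSE1 and -0.42 for KIF20A on the log2 scale. At 6 h they were 0.96 for BUB1, 0.77 for ANLN, 0.63 for AURKA, 0.58 for CDC20, 0.55 for PLK1, 0.22 for CCNA2 and -0.25 for NUSAP1. All groups had 3 libraries, too few for a search for single libraries that stand apart.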

How the results depend on the processing

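Among the alternative values of the genes named, 1752 kept direction and side of the threshold, 94 lost the call and 18 gained it. A called value changed sign in 1, CCNB2 in PEO4 B at 6 h, which was -0.003 with library totals, and 34 values changed sign without being called in either fit. With 2-fold change also required, the members called numbered 6 and 2 in the first and second untreated pair, 1 in PEO4 B at 2 h, and 0 in the other 7 comparisons in edgeR's quasi-likelihood test. With library totals the members' median log2 fold change was 0.29 in PEO1 B at 2 h, 0.052 at 6 h, 0.27 in PEO4 B at 2 h and 0.26 at 6 h. With upper-quartile scaling it was 0.36, 0.11 and 0.31 in PEO1 B at 2 and 6 h and PEO4 B at 6 h. With 1 library left out in turn, the median ran from 0.33 to 0.47 in PEO4 B at 2 h, from 0.38 to 0.50 at 6 h, and from 0.11 to 0.25 for the line difference at 6 h. Members called ran from 13 to 18 in PEO1 B between 2 and 6 h and from 5 to 12 for the line difference at 2 h, where DESeq2's Wald test called 8. Same-numbered replicates did not deviate together (correlations from -0.239 to 0.251 in the second table), and the replicate block gave 33, 29, 39, 27, 20, 38, 40, 22, 5 and 18 members called in the 10 comparisons. Low counts limit SPC25.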
